A study of Mus musculus with 4 samples.

Results

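The kinetochore is the protein assembly through which a chromosome is held by spindle microtubules, and the centromere is the stretch of chromatin on which it forms. A set of 42 genes for these structures was followed in RNA sequencing of whole mouse testes at P10 (postnatal day 10). The members were every row of the deposited gene table whose gene name is one of 42 listed names, out of 55820 loci in the table. All 42 names were found, once each, and all 42 passed the filter on low counts that kept 20561 loci for testing. The smallest count of a member in any library was 164, for *Cenpp*, and the largest was 9978, so no member entered the test through 1 genotype alone.

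The experiment had 2 groups of 2 libraries, all from C57BL/6J mice at P10. Mps1sKO mice carried floxed *Mps1* alleles and *Stra8*-Cre, which is active in germ cells from the early spermatogonium onward, so the somatic cells of the same testis kept the gene. The other group was labelled only as control, with no genotype given. No source used here says whether a library came from 1 mouse or from pooled tissue, so p-values measure the spread between these samples, which may be technical. The libraries held 23311689 to 28607746 counts on genes. Chi-square per degree of freedom between libraries of a group was 8.49 and 11.6, so neither pair was 1 library sequenced again. Separate preparations from the same tissue cannot be told apart in this way. *Ttk*, the gene symbol of *Mps1*, had 27.9 and 32.6 CPM (counts scaled to a common library total) in control replicates 1 and 2 and 13.0 and 12.2 CPM in Mps1sKO replicates 1 and 2, which was 41.7% of the control mean (adjusted p = 0.0461, edgeR).

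As background, chromatin containing the histone variant CENP-A marks the centromere, and the constitutive centromere-associated network (CCAN) binds it through the cell cycle. When a cell enters mitosis or meiosis, the KNL1, MIS12 and NDC80 complexes are built on the CCAN, NDC80 binds microtubules, and the SKA and RZZ complexes, the corona, the shugoshins and the chromosomal passenger complex join in attachment, checkpoint signalling and protection of cohesion. MPS1 is a kinase that acts at unattached kinetochores on KNL1. Transcripts of many of these genes are most abundant in dividing cells, which at P10 include spermatogonia and Sertoli cells.

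Among promoter elements known from cell cycle genes are the cell cycle genes homology region (CHR) and the CCAAT box. The promoters of 4 members are printed to make them visible: those of *Cenpw*, the member with the lowest fold change, of *Kntc1*, another member that was called lower, of *Spc25*, which was not called, and of *Zwint*, whose log2 fold change was above 0. Each line holds the 120 bases before the transcription start of RefSeq on GRCm38.p6, 5′ to 3′ on the strand of the gene, and capitals mark a CHR (TTTGAA or TTCGAA, on either strand) or a CCAAT box (CCAAT, on either strand).
Cenpw, chr10:30200541-30200660, minus strand: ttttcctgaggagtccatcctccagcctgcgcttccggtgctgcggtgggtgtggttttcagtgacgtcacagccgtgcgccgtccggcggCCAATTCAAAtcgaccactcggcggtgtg
Kntc1, chr5:123749606-123749725, plus strand: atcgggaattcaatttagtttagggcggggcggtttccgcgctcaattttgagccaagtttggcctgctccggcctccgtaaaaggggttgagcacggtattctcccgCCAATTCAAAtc
Spc25, chr2:69206214-69206333, minus strand: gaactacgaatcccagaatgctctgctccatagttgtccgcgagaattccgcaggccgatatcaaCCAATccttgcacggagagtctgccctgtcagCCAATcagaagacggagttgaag
Zwint, chr10:72654726-72654845, plus strand: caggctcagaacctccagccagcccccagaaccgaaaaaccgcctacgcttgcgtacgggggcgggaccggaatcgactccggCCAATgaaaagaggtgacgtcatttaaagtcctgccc
In *Cenpw* and in *Kntc1* the last base of the CCAAT box is the first base of the CHR, which begins 25 and 8 bases before the RefSeq start. In the GENCODE M21 annotation, 20 bases of the printed *Cenpw* stretch, 10 of *Kntc1* and 1 of *Zwint* are exon bases. Positions relative to the start therefore depend on the annotation. *Spc25* has 2 CCAAT boxes here, 55 and 23 bases before the start, and its CHR lies after the start and is not shown. The printed stretch of *Zwint* holds a CCAAT box, 37 bases before the start, and no CHR. These 4 promoters do not stand for all members. Of 19 members with a CHR in the 300-base sequences below, 9 were called lower. Of 18 with such a sequence but no CHR, 4 were.

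Promoter sequences of 300 bases, 250 before and 50 after the start, were matched for 37 of the 42 members. A CHR was present for 19 of these 37, in 47.5% of the members' 40 promoters against 19.2% of all 32851 promoters. A CCAAT box was present for 25 of the 37, in 70.0% of the members' promoters against 37.4% of all. Both elements were present in 35.0% of the members' promoters and in 7.53% of all. Within 50 bases of the start on either side, a distance chosen after the positions were seen, 14 members had a CHR, in 35.0% of their promoters against 5.31% of all. The members' promoters had a median GC content of 58.2%, and all promoters 52.7%. These are matches of letters and do not show that a factor binds there.

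Compared with control testes, Mps1sKO testes had lower values of most kinetochore and centromere genes by a small margin. The fold change of a member was below 1 for 40 of 42 members (39 with DESeq2, where *Ska2* was above 1), and the median log2 fold change was −0.25, against 0.00027 over all 20561 loci tested. With cut-offs of 1.2 for the fold change and 0.05 for the unadjusted p, 15 of 42 members were called lower, where 4.95% of all tested loci were called lower. None was called higher, where 3.09% of all loci were. The 15 members called lower were *Cenpa*, *Mis18a*, *Oip5*, *Cenph*, *Cenpp*, *Cenpw*, *Dsn1*, *Knl1*, *Spc24*, *Ska3*, *Kntc1*, *Zwilch*, *Spdl1*, *Sgo1* and *Sgo2a*, at least 1 gene of each group described below except the passenger complex. At the study's stricter cut-offs, a fold above 1.5 and p below 0.01, *Cenpw* alone was called lower, where 0.681% of all loci were. That count of 1 was 3 without control replicate 1 (1.51% of all loci), 2 without Mps1sKO replicate 1 (1.34% of all loci) and 0 without control replicate 2 (0.469% of all loci).

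No member passed an adjusted p of 0.05 (edgeR, over all tested loci), where 0.0292% of all loci, 6 in number, did. A total of 16 members had an unadjusted p below 0.05, where 9.30% of all loci did. The smallest adjusted p of a member was 0.494. DESeq2 also called none after adjustment. It had 11 members lower at a fold of 1.2 and an unadjusted p below 0.05. That was 1.65% of the 35262 loci with any count, which include those with few counts, so the share is not directly comparable with that of edgeR. The count at a fold of 1.2 depended most on replicate 2 of each group: it was 1, *Cenpw*, without control replicate 2 (2.28% of all loci), and 5 without Mps1sKO replicate 2 (5.42% of all loci).

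**Figure D1:**
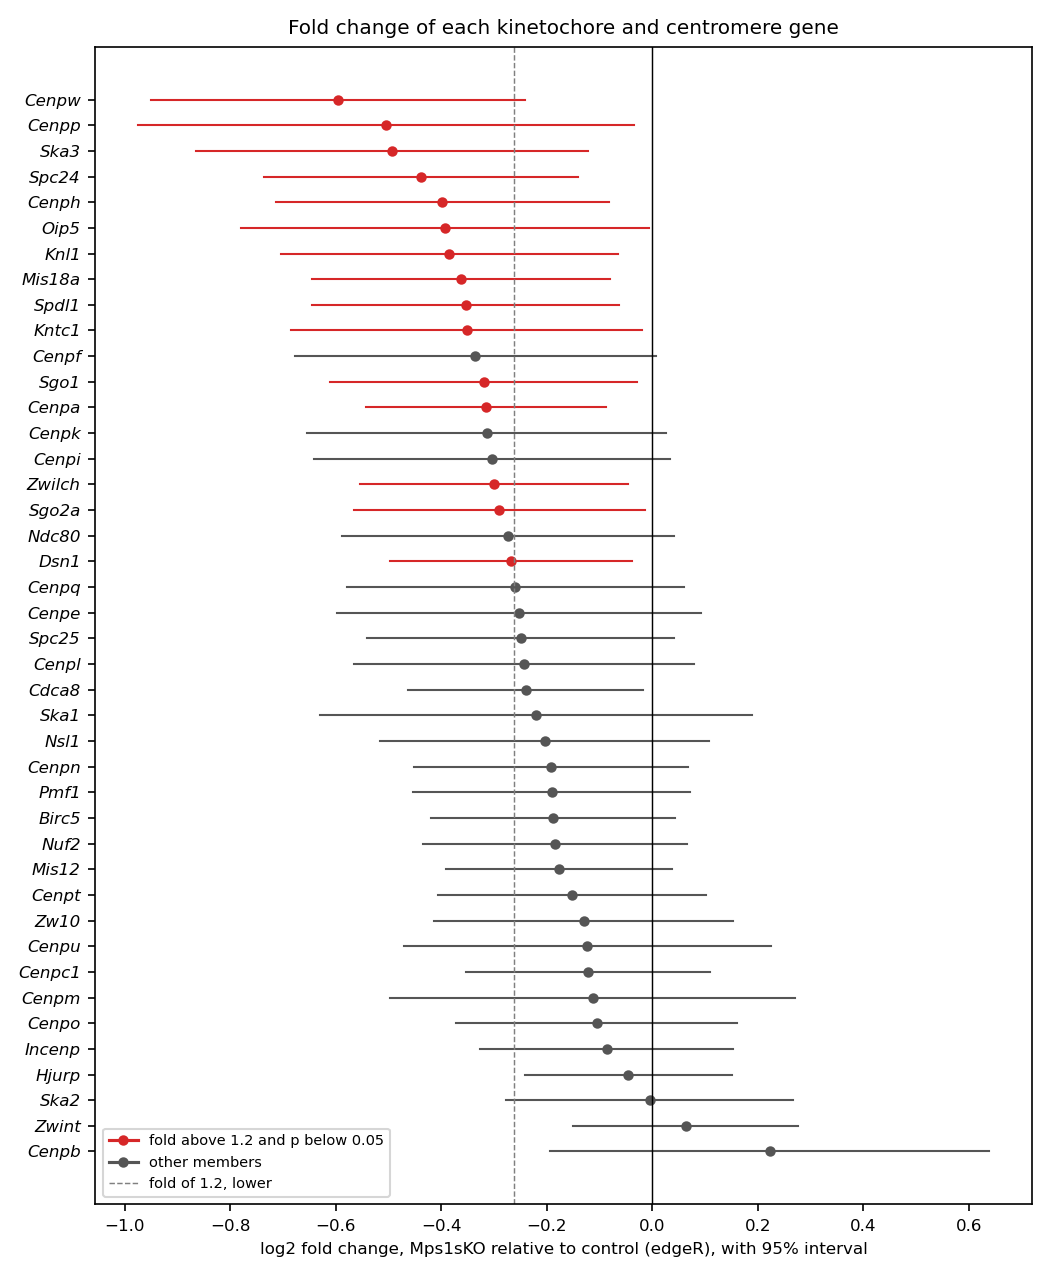
The log2 fold change of each of the 42 genes in Mps1sKO relative to control testes (x axis), with its 95% interval from edgeR, ordered from lowest to highest. The 15 genes called lower are red, the dashed line marks a fold of 1.2, and only *Cenpb* and *Zwint* lie to the right of 0.

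The libraries themselves showed how small the margin was. In 30 of 42 members both Mps1sKO libraries lay below both control libraries, where 21.1% of all loci did, in none did both lie above, where 20.3% of all loci did, and in the other 12 the groups overlapped. The summed CPM of the members was 2309 and 2458 in control replicates 1 and 2, against 2193 and 2059 in their Mps1sKO counterparts. The lowest control sum, of replicate 1, and the highest Mps1sKO sum, of replicate 1, were closer to each other than the 2 libraries of either group were. Control replicate 2 was higher than control replicate 1 for 36 members, with a median log2 difference of 0.16, and Mps1sKO replicate 2 was lower than Mps1sKO replicate 1 for 32 members, with a median log2 difference of −0.16. The difference between genotypes was larger than both of these within-group differences for 25 members. The share of all loci for which this held was not computed, so the count has no background to be read against. An exact permutation test of any single value with 2 against 2 libraries cannot give a p below 0.333. In bulk tissue, fewer cells of a type and less RNA per cell cannot be told apart.

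**Figure D2:**
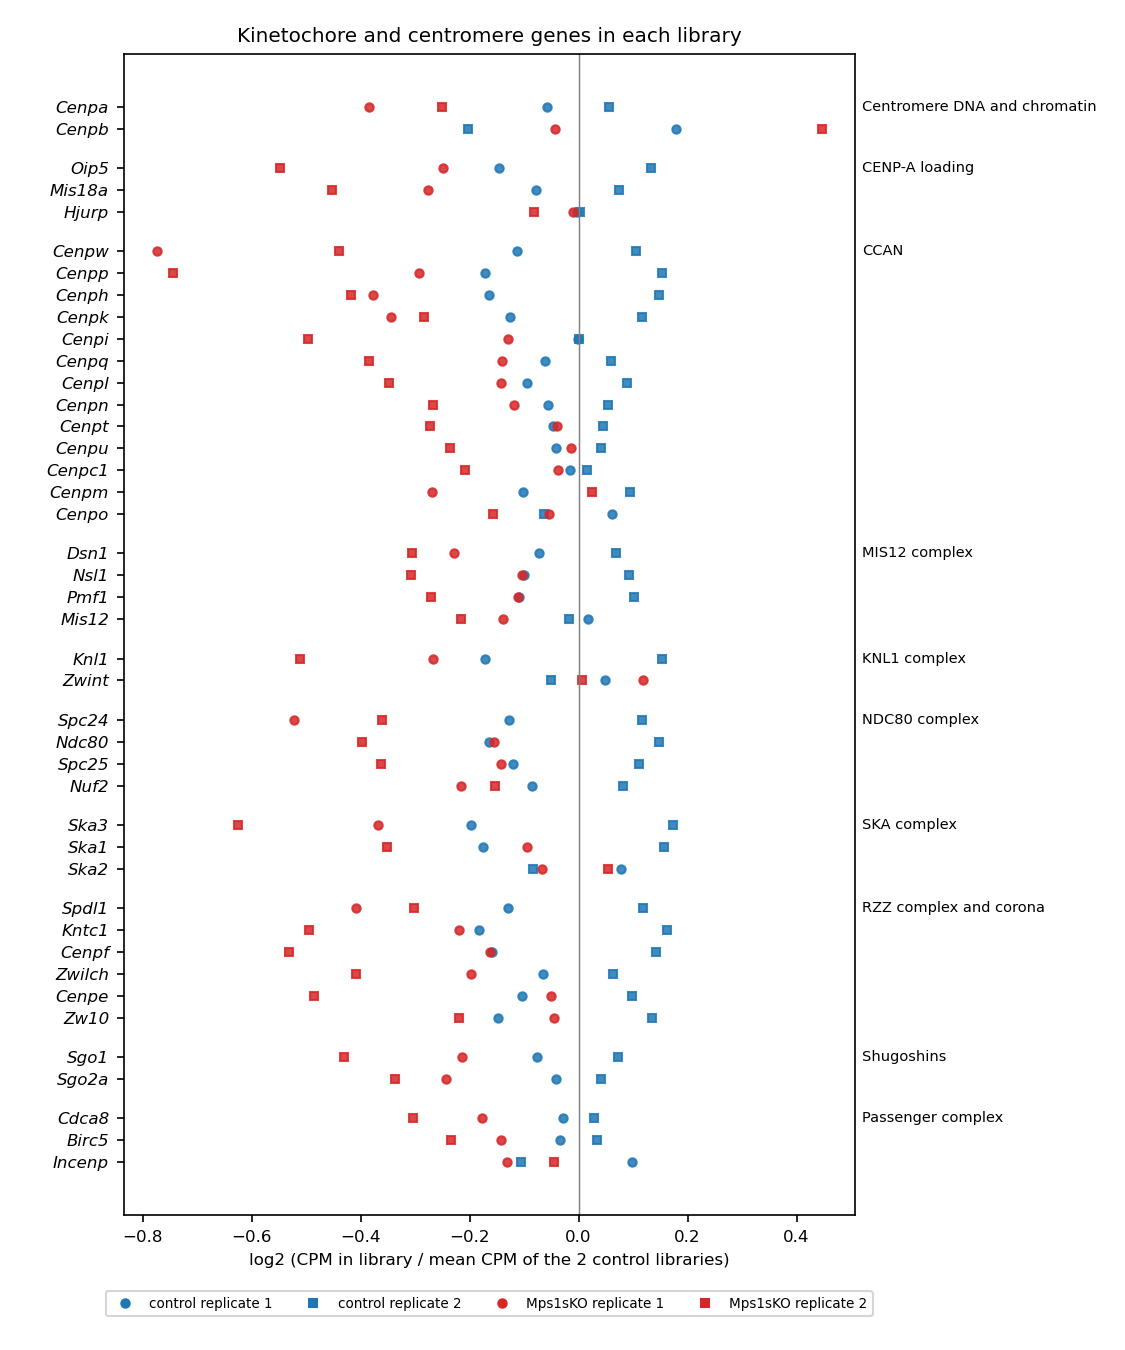
The log2 ratio of each library's CPM to the mean of the 2 control libraries (x axis) for each gene (y axis), grouped by role, with controls in blue and Mps1sKO in red. Circles are replicate 1 and squares are replicate 2, and the red points lie left of both blue points for 30 of the 42 genes.

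The 2 genes of centromere DNA and chromatin differed in the sign of their values. *Cenpa* (chr5:30666777-30674830 on GRCm38, the build of all gene positions here, plus strand), which encodes the histone variant CENP-A, had 72.7 and 78.6 CPM in control and 58.0 and 63.6 CPM in Mps1sKO libraries. Its log2 fold change was −0.32 ± 0.098 (SE, n = 2 per group; adjusted p = 0.494, edgeR), or 80.4% of control, and the groups did not overlap. *Cenpb* (chr2:131175182-131180067, minus strand), whose protein binds a short motif in centromeric repeats, had 200.2 and 153.6 CPM in control and 171.6 and 241.1 CPM in Mps1sKO libraries. The highest and the second lowest value were both from Mps1sKO testes, the log2 fold change was 0.22 ± 0.18 (adjusted p = 0.713), and without Mps1sKO replicate 2 it was −0.043.

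Of the 3 genes for loading CENP-A, both measured MIS18 subunits, which license the centromere for loading, were called lower and the chaperone was not. *Oip5*, which encodes MIS18 beta, had 12.3 and 14.9 CPM in control and 11.5 and 9.33 CPM in Mps1sKO libraries (log2 fold change −0.39 ± 0.17, adjusted p = 0.533). *Mis18a*, its partner, had 24.7 and 27.4 CPM in control and 21.5 and 19.0 CPM in Mps1sKO libraries (log2 fold change −0.36 ± 0.12, adjusted p = 0.497). In both genes the highest Mps1sKO library stayed below the lowest control library, for *Oip5* by less than 1 CPM. *Hjurp*, the chaperone that deposits CENP-A, was nearly level, with 313.5 and 314.4 CPM in control and 311.8 and 296.7 CPM in Mps1sKO libraries. Its log2 fold change was −0.046 ± 0.085 (adjusted p = 0.893), with a 95% interval from −0.24 to 0.15.

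All 13 CCAN genes had a fold change below 1, with a median log2 fold change of −0.24, and 3 were called lower. *Cenpw* (chr10:30194569-30200560, minus strand) encodes a histone-fold protein that pairs with CENP-T on DNA. It had 20.6 and 24.0 CPM in control and 13.0 and 16.4 CPM in Mps1sKO libraries. These are 555 and 691 counts against 302 and 440, and the log2 fold change was −0.60 ± 0.15 (adjusted p = 0.494), or 66.2% of control. Both Mps1sKO libraries were below the controls, and it stayed lower with any library left out, from −0.77 to −0.44. The study lists *Cenpw* among its downregulated genes from these same libraries, which is no independent evidence of its direction.

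*Cenpp*, of the CENP-O group, had the fewest counts of the called genes. Its libraries had 9.10 and 11.4 CPM in control and 8.37 and 6.12 CPM in Mps1sKO libraries (log2 fold change −0.51 ± 0.20, adjusted p = 0.526), and the difference between the 2 Mps1sKO libraries was wider than the gap between the groups. *Cenph*, of the CENP-H/I/K group that links the inner network to the outer kinetochore, had 21.9 and 27.2 CPM in control and 18.9 and 18.4 CPM in Mps1sKO libraries. Its log2 fold change was −0.40 ± 0.14 (adjusted p = 0.502), and its partners *Cenpk* and *Cenpi* had −0.31 and −0.30 without being called. The smallest change in the network was in *Cenpo*, with 24.3 and 22.3 CPM in control and 22.4 and 20.9 CPM in Mps1sKO libraries, where the groups overlapped (log2 fold change −0.11 ± 0.11, adjusted p = 0.796). The other 7 genes, *Cenpc1*, *Cenpl*, *Cenpm*, *Cenpn*, *Cenpq*, *Cenpt* and *Cenpu*, lay between −0.26 for *Cenpq* and −0.11 for *Cenpm*. *Cenpt*, the partner of *Cenpw*, was at −0.15 with overlapping groups.

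The KNL1, MIS12 and NDC80 complexes form the outer plate that meets the microtubule. In the MIS12 complex all 4 genes had both Mps1sKO libraries below both controls, and *Dsn1* was called lower. *Dsn1*, the subunit through which Aurora B phosphorylation controls CENP-C binding, had 49.7 and 54.9 CPM in control and 44.6 and 42.3 CPM in Mps1sKO libraries (log2 fold change −0.27 ± 0.099, adjusted p = 0.513). *Mis12* had 53.1 and 51.8 CPM in control and 47.7 and 45.2 CPM in Mps1sKO libraries (log2 fold change −0.18 ± 0.092, adjusted p = 0.591), while *Nsl1* and *Pmf1* were at −0.20 and −0.19.

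The 2 genes of the KNL1 complex had fold changes on either side of 1, and only *Knl1* was called. *Knl1* (chr2:119047119-119105501, plus strand), the scaffold that MPS1 phosphorylates to recruit the checkpoint proteins, had 48.3 and 60.5 CPM in control and 45.2 and 38.2 CPM in Mps1sKO libraries. Its log2 fold change was −0.39 ± 0.14 (adjusted p = 0.507), and the groups did not overlap although the controls spanned a wide range. *Zwint* (chr10:72654845-72674964, plus strand), the KNL1 partner, had 187.4 and 174.9 CPM in control and 196.6 and 182.0 CPM in Mps1sKO libraries. The groups overlapped, with a log2 fold change of 0.063 ± 0.091 (adjusted p = 0.850) and a 95% interval from −0.15 to 0.28. The difference between the 2 genes' changes was not tested.

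In the NDC80 complex, whose NDC80 and NUF2 subunits hold the microtubule and whose SPC24 and SPC25 subunits anchor them, *Spc24* was called lower. *Spc24* had 26.8 and 31.7 CPM in control and 20.4 and 22.8 CPM in Mps1sKO libraries (log2 fold change −0.44 ± 0.13, adjusted p = 0.494). *Ndc80* had 44.1 and 54.7 CPM in control and 44.3 and 37.5 CPM in Mps1sKO libraries, so Mps1sKO replicate 1 reached control replicate 1, and the log2 fold change was −0.27 ± 0.14 (adjusted p = 0.582). *Nuf2* had 31.6 and 35.5 CPM in control and 28.9 and 30.2 CPM in Mps1sKO libraries (log2 fold change −0.18 ± 0.11, adjusted p = 0.619). *Spc25* was at −0.25 with groups that did not overlap.

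The SKA complex tracks microtubule ends, and its 3 genes covered a wide range. *Ska3* (chr14:57806561-57826185, minus strand) had 21.3 and 27.5 CPM in control and 18.9 and 15.8 CPM in Mps1sKO libraries (log2 fold change −0.49 ± 0.16, adjusted p = 0.497). *Ska2* had 25.4 and 22.7 CPM in control and 22.9 and 24.9 CPM in Mps1sKO libraries, with a log2 fold change of −0.0049 ± 0.12 (adjusted p = 0.995) and a 95% interval from −0.28 to 0.27. *Ska1* lay between them at −0.22 with overlapping groups.

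In the RZZ complex and the corona, which gather checkpoint proteins and dynein on unattached kinetochores, 3 of 6 genes were called lower and the median log2 fold change was −0.32. *Spdl1*, the dynein adaptor Spindly, had 25.7 and 30.6 CPM in control and 21.2 and 22.8 CPM in Mps1sKO libraries (log2 fold change −0.35 ± 0.12, adjusted p = 0.506). *Kntc1*, which encodes the ROD subunit, had 57.6 and 73.2 CPM in control and 56.1 and 46.4 CPM in Mps1sKO libraries (log2 fold change −0.35 ± 0.14, adjusted p = 0.527). Its lowest control library and highest Mps1sKO library were within 2 CPM of each other. *Zwilch* had 54.2 and 59.3 CPM in control and 49.5 and 42.8 CPM in Mps1sKO libraries (log2 fold change −0.30 ± 0.11, adjusted p = 0.510).

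The remaining RZZ subunit, *Zw10*, which also acts in membrane traffic, had 56.4 and 68.5 CPM in control and 60.6 and 53.6 CPM in Mps1sKO libraries. The groups overlapped and the log2 fold change was −0.13 ± 0.12 (adjusted p = 0.762). The large corona genes *Cenpf* and *Cenpe*, a farnesylated coiled-coil protein and a plus-end directed kinesin, were at −0.34 and −0.25 without being called. For *Cenpf*, the library values were 280.9 and 346.0 CPM in control and 280.0 and 216.9 CPM in Mps1sKO testes, so replicate 1 of each group was nearly at the same level.

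Both shugoshins, which guard centromeric cohesin, were called lower. *Sgo1*, known for its role in mitosis, had 24.4 and 27.0 CPM in control and 22.1 and 19.1 CPM in Mps1sKO libraries (log2 fold change −0.32 ± 0.13, adjusted p = 0.522). *Sgo2a* (chr1:57995971-58025899, plus strand), known for protecting cohesin in meiosis, had 19.3 and 20.5 CPM in control and 16.8 and 15.7 CPM in Mps1sKO libraries (log2 fold change −0.29 ± 0.12, adjusted p = 0.527). In neither gene did the groups overlap. For *Sgo2a*, 35.0% of the exon bases are also exon bases of *Kctd18* on the opposite strand.

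None of the 3 passenger complex genes was called, although *Cdca8* and *Birc5* had both Mps1sKO libraries below both controls. *Cdca8*, which encodes borealin, had 53.3 and 55.5 CPM in control and 48.1 and 44.1 CPM in Mps1sKO libraries (log2 fold change −0.24 ± 0.096, adjusted p = 0.527) that missed the fold of 1.2. *Birc5*, which encodes survivin, had 35.6 and 37.3 CPM in control and 33.0 and 31.0 CPM in Mps1sKO libraries (log2 fold change −0.19 ± 0.10, adjusted p = 0.594). *Incenp*, the scaffold of the complex, had 81.5 and 70.8 CPM in control and 69.5 and 73.8 CPM in Mps1sKO libraries. The groups overlapped and the log2 fold change was −0.087 ± 0.10 (adjusted p = 0.814).

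Levels between genes were compared per length, as the mean deposited FPKM of the control libraries. The most abundant members were *Zwint* at 40.5, *Hjurp* at 37.4 and *Cenpb* at 35.9 FPKM, followed by *Cenpf* at 20.2 and *Incenp* at 17.5 FPKM. The least abundant were *Cenpk* at 2.42, *Cenpu* at 2.62 and *Sgo2a* at 2.82 FPKM, and the median was 8.88 FPKM. The lengths are unions of all annotated exons, which for *Cenpa* was 3.997 times its longest coding transcript, so the order depends on the annotation. The 3 most abundant members had log2 fold changes of 0.063, −0.046 and 0.22, and none was called. Across the 42 genes, which share the same 4 libraries, the log2 of the control level and the log2 fold change had a Pearson correlation of 0.38 and a Spearman correlation of 0.23, given as a description.

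**Figure D3:**
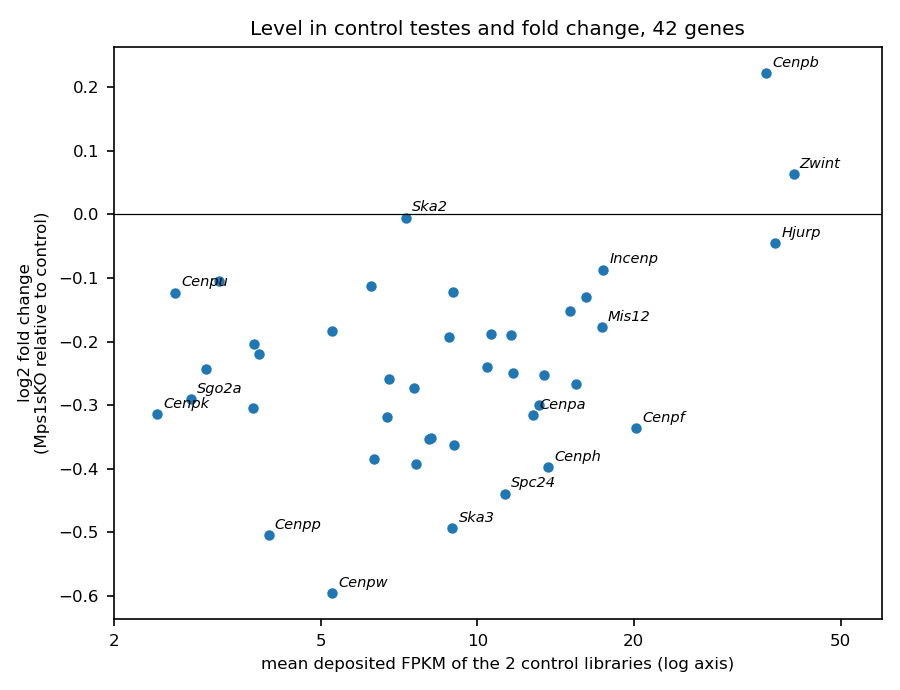
The mean deposited FPKM of the 2 control libraries (x axis, log scale) and the log2 fold change (y axis) of the 42 genes, 1 point each, with selected genes named. *Zwint*, *Hjurp* and *Cenpb*, at 35.9 to 40.5 FPKM, lie near or above a log2 fold change of 0, and *Cenpw* at 5.25 FPKM lies lowest.

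Set beside the promoters, the 19 members with a CHR had a median log2 fold change of −0.32 and 9 were called lower, and the 18 members with a promoter but no CHR had a median of −0.19 and 4 were called lower. For the CCAAT box the medians were −0.25 with it, over 25 members, and −0.23 without it, over 12. Among members with a CHR, fold changes ran from −0.60 for *Cenpw* to −0.046 for *Hjurp*. *Cenpb* and *Zwint*, the members above 0, had none. Over all tested loci 4.95% were called lower, and no share was computed for all loci with or without a CHR. The differences between members with and without an element were not tested.

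A further list of kinetochore, checkpoint and centromere genes outside the set had 36 tested genes, with a median log2 fold change of −0.14. Of these, 8 were called lower and none higher, where 4.95% and 3.09% of all loci were. Without control replicate 2, 1 was called lower. In 15 of the 36 both Mps1sKO libraries lay below both controls, where 21.1% of all loci did, and in 3 above, where 20.3% did. *Kif2c*, the microtubule-depolymerising kinesin of the centromere, had 60.01 and 70.1 CPM in control and 49.1 and 47.5 CPM in Mps1sKO libraries (log2 fold change −0.43 ± 0.11, adjusted p = 0.494). *Mad2l1* and *Bub1*, both of the spindle assembly checkpoint, were at −0.31 and −0.40, and *Trip13*, the ATPase that remodels MAD2 and meiotic HORMA proteins, was at −0.30. *Cenps*, a histone-fold partner in the CENP-T-W-S-X complex, was at −0.53, and *Dscc1* was at −0.40, although its product is a sister-chromatid cohesion factor and not a kinetochore protein. *Bub1b* and *Haspin*, the kinase that marks centromeric histone H3, complete the 8.

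The lists that mark cell types and proliferation were chosen with earlier results of these data known. They moved over the same libraries. Over all loci, 4.95% were called lower and 3.09% higher. Of 15 germ cell genes, 14 were called lower (median log2 fold change −0.41), and their summed CPM was 1815 and 2135 in control and 1653 and 1281 in Mps1sKO libraries. The order of the libraries was that of the kinetochore genes, with control replicate 2 highest and Mps1sKO replicate 2 lowest. Of 25 proliferation genes, 10 were called lower, with a median of −0.22 and summed CPM of 2578 and 2954 in control and 2463 and 2234 in Mps1sKO libraries. Of 8 genes of differentiating spermatogonia, 5 were called lower, *Ccnd2* was called higher and the median was −0.31, and of 15 genes of undifferentiated spermatogonia 3 were called lower with a median of −0.12.

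Among somatic markers, the Sertoli cell list was the one with called genes. Of 16 tested Sertoli cell genes, 5 were called higher and none lower, where 3.09% and 4.95% of all loci were. Their median was 0.27, with summed CPM of 6708 and 6896 in control and 8660 and 7987 in Mps1sKO libraries. A large part of these sums was *Clu*, with 2900 and 3586 CPM in control and 4399 and 3319 CPM in Mps1sKO libraries. Its groups overlapped and it was not called. Among the 8 Leydig, 6 peritubular myoid, 8 macrophage and 7 endothelial genes none was called, with medians of 0.18, −0.17, −0.017 and 0.096. Of these markers of cell types and proliferation, *Rhox5*, a Sertoli cell gene that was not tested, was at 0 counts in 3 of 4 libraries, and the others had counts in every library. The part of these lists in the values of the kinetochore genes was not tested.

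**Figure D4:**
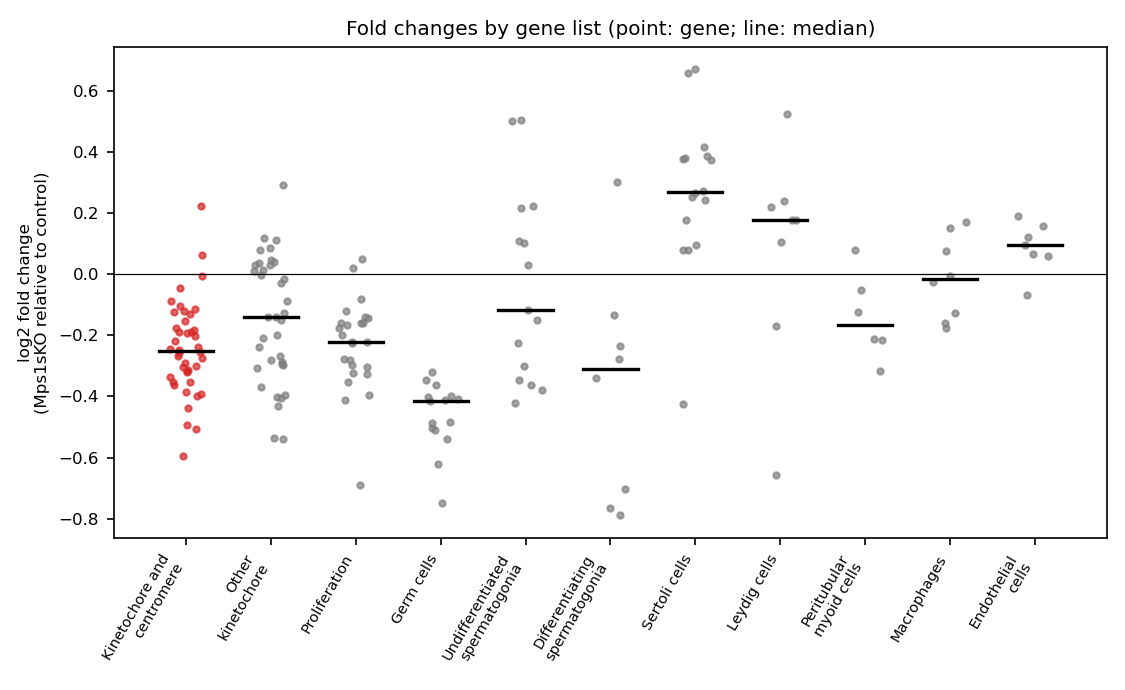
The log2 fold change in Mps1sKO relative to control testes (y axis) of each tested gene, 1 point each, in the kinetochore and centromere set (red) and in the lists of other kinetochore genes, proliferation and cell types (grey), with lines at the medians. The median was −0.25 for the kinetochore and centromere genes, −0.41 for germ cell genes and 0.27 for Sertoli cell genes.

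Some values carry limits from the gene models. Exon bases are shared with a neighbouring gene by 14 members, mostly on the opposite strand, from 0.219% for *Cenpt* to 26.7% for *Cenpu* and the 35.0% of *Sgo2a*, and no source says whether counting used the strand. Stretches of at least 150 bases with at least 95% identity to a transcript of another gene were found for 17 members. For 9 of these the other gene shared no exon bases with the member: *Ska2* (up to 360 bases), *Cenpw* (345), *Cenpc1* (319), *Ndc80* (303), *Cenpe* (198), *Cenpf* (194), *Spc24* (174), *Birc5* (169) and *Nsl1* (161). *Spc24*, *Cenpf* and *Cenpw* had such stretches in common with 41, 27 and 14 other genes, and each of the remaining members with 1 to 6.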

How the data were processed

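The authors deposited raw read counts per gene and FPKM values for 2 control and 2 Mps1sKO libraries of P10 testes. The submitters' processing notes name HISAT2 2.0.5, featureCounts, DESeq2 1.16.1 and the build mm10, and the strandedness is not given in the sources used here. All 42 members had the coordinates of GENCODE M21, and their deposited lengths were the unions of exons. The deposited FPKM values were used only for levels between genes.

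Groups came from the genotype labels. Counts of all loci were filtered with filterByExpr, normalized by TMM and tested with edgeR 4.0.16 (quasi-likelihood F test, R 4.3.3). The filter removed 35259 loci, and p-values were adjusted by Benjamini and Hochberg over the 20561 tested. The biological coefficient of variation was 0.106. CPM were computed with TMM-scaled totals, where 3 counts are 0.104 to 0.129 CPM. Gene lists were described by counts and medians. The members and lists, taken partly from an earlier analysis, were chosen with earlier results of these data known, as were the tests. Named in full were, in each role, the members with the lowest and the highest fold change, every member called at a fold of 1.2, and *Cenpa*, *Ndc80*, *Knl1*, *Sgo1*, *Sgo2a* and *Birc5*. Outside the members they were *Ttk* and the 6 called genes of the further kinetochore list with the smallest p. *Bub1b*, *Haspin*, *Ccnd2* and *Clu*, outside this rule, were named after their values were seen.

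Alternatives were DESeq2 1.42.0, its size factors, library size only, no filter, a minimum of 10 counts per library, limma-voom (limma 3.58.1), a robust dispersion, a replicate block and each library left out. The scripts were tested on simulated data. Shared exons and similar transcripts were found with Python 3.11.15, pandas 2.3.3 and BLAST 2.17.0, and promoters came from RefSeq (GRCm38.p6).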

Additional observations from a re-analysis of the deposited data

How the results depend on the processing

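The count of 15 members lower at a fold of 1.2 (4.95% of all loci) was 11 with DESeq2 (1.65%). It was 13 with the DESeq2 size factors (4.69%). With library size only, no filter, a minimum of 10 counts, limma-voom or a robust dispersion it was 15 to 17 (4.31% to 5.72%). The shares for DESeq2 and for no filter are of 35262 loci, including those with few counts. They are not directly comparable with the 4.95% of 20561 loci. Leaving out a library gave 1 to 21 such members (2.28% to 6.83%), 0 to 3 at a fold of 1.5, and 1 to 12 of the other kinetochore genes. It gave 0 to 1 members called higher (*Cenpb*, without replicate 1 of either group). Every remaining Mps1sKO library lay above every remaining control library for 0 to 3 members, where 31.2% to 38.2% of all loci did. With no library left out that share of all loci was 20.3%, so the counts with and without a library are not directly comparable. With 1 library left in a group, its spread was assumed to equal that of the other. The median log2 fold change of the members stayed below 0 throughout, from −0.33 to −0.15. Of the members, 1 (*Cenpw*) passed an adjusted p of 0.05 without the filter. The replicate numbers are not stated to pair the libraries. Deviations of same-numbered libraries correlated at −0.19 over tested loci and at −0.44 over the 42 members. With the replicate block 6 members and 4 other kinetochore genes were lower at a fold of 1.2 (3.34% of all loci). With the numbers crossed, 20 members were lower (6.46% of all loci) and 5 members passed an adjusted p of 0.05. That setting was added after the data were seen, because of the negative correlation, so its counts are no independent evidence. The share of all loci that passed the adjusted p was recorded neither there nor without the filter. Leaving out libraries moved *Cenpb* from −0.043 (without Mps1sKO replicate 2) to 0.45, *Cenpm* from −0.27 to 0.025 (without Mps1sKO replicate 1), *Zw10* from −0.27 to 0.017 (without control replicate 2), *Incenp* to 0.017 (without control replicate 1) and *Ska2* from −0.085 to 0.076 (without control replicate 1) and 0.054 (without Mps1sKO replicate 1). *Ska2* was also above 0 with DESeq2 (0.0011) and its size factors (0.0012). Of the other values of single members under the alternatives, 468 kept their direction and side of the threshold, 44 lost the call and 26 gained one. The cause was not tested.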
